A study of Mus musculus with 25 samples.

Results

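The change that the transgene brought to the sciatic nerve of C22 mice was set against the change in C3 mice, gene by gene. For each gene the measured quantity was the log2 fold change of C22 against its control WT-C22, minus the log2 fold change of C3 against its control WT-C3, and it is called the difference of changes here. A positive difference means that the gene changed further upward, or less far downward, in C22 than in C3. The 4 groups took 20 of the 25 libraries of the series, and 13993 of the 56956 genes in the table were tested, namely those with a log2 CPM (counts scaled to a common library total) above 1 in 7 or more of the 25 libraries. Both models are used for the inherited demyelinating neuropathy CMT1A. C22 mice carry a yeast artificial chromosome with human DNA and were on an FVB/NRJ background, as were their WT-C22 controls. C3 mice arose from the C22 line by a spontaneous partial loss of the transgene and were on a C57BL/6J background, as were their WT-C3 controls. Both lines were kept heterozygous, and no gene was knocked out in these 20 libraries. Each group had 1 library at each of 5 ages (3, 5, 7, 9 and 12 weeks), and each library pooled the nerves of 4 to 5 males and females. The 5 ages of a group therefore stand as its replicates, so that every SD and SE includes differences between ages on top of those between pools. The transgene line and the strain differ together between the models, and their parts in a difference of changes cannot be told apart. For this reason the levels in WT-C3 and WT-C22, or their difference, stand beside many of the genes. Where a gene is named without them, a gap between the strains is not shown and may be present.

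The sciatic nerve holds myelinating Schwann cells, which wrap 1 axon each in myelin, and nonmyelinating Schwann cells, which hold bundles of thin axons. Both kinds sit on a basal lamina of laminins and collagens and take signals from the axon, of which neuregulin 1 is the best known. Myelinating cells organise the axon at the node of Ranvier and at the flanking paranode, and when they lose contact with the axon they fall back toward an immature state or take up a repair state with its own secreted factors. Axons bring their own proteins into the nerve, but few axonal transcripts.

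Deduplicated reads on genes numbered 2140140 to 49072700 per library, and the C3 library of 9 weeks was the shallowest. The human genes of the transgene locus, summed, read 12643 ± 1612 CPM in C3 and 11819.6 ± 1405 CPM in C22 (mean ± SD, n = 5 each), against at most 6.38 CPM in any control library, so the transgenic libraries stood apart from the controls. This sum does not tell C22 from C3 libraries. The ratio of the means of C22 to C3 was 0.935, with an interval of 0.738 to 1.19 (coverage 96.8%) and p = 0.381 in a two-sided exact permutation test whose smallest possible p is 0.00794. Myelinating Schwann cell markers (9 genes, all expressed) summed to 24957 to 36872 CPM in C22 and 39679 to 59531 CPM in C3, against 47838 to 98599.8 CPM in WT-C22 and 59396 to 103343 CPM in WT-C3. Macrophage markers (23 of 23) summed to 998 to 1601 CPM in WT-C3, 1043 to 1314 CPM in C3, 628 to 1072 CPM in WT-C22 and 525 to 819.8 CPM in C22. These sums hold Spp1, which Schwann cells also make and whose levels, given below, differ much between the groups. Of the 23 macrophage markers, 2 were higher and 4 lower in WT-C22 than in WT-C3, beside 12% and 11.6% of all genes. None of the 13 T and B lymphocyte markers passed the filter on low values. Skeletal muscle markers (11 of 12) varied from 22.5 to 9908 CPM between libraries within groups, and mast cell markers (8 of 9) were higher in FVB/NRJ nerve, with 78.9 to 285 CPM in WT-C22 and 40.7 to 93.6 CPM in WT-C3. Perineurial markers (8 of 8) summed to 1306 to 1754 CPM in C22 and 1946 to 3108 CPM in WT-C22, against 1754 to 2679.6 CPM in C3 and 1901 to 3096 CPM in WT-C3, and 7 of the 8 fell in C22 and 5 in C3. Endothelial and pericyte markers (15 of 15) summed to 894 to 1579.6 CPM in C22, 1391 to 2054 CPM in WT-C22, 954 to 1736 CPM in C3 and 1361 to 1833 CPM in WT-C3, and 10 of the 15 fell in C22 and 3 in C3. Falls over all genes came to 20.9% in C22 and 13% in C3, so that the 3 of 15 in C3 lay near that share. Of 5 sex-linked genes, 3 rose in C22 and 2 were lower in WT-C22 than in WT-C3. Their median difference of changes was 0.88 and above 0 at all 5 ages, 0 of the 5 differences passed by edgeR (2 with an unadjusted p under 0.05, 1 called by DESeq2), and the sex balance of the pools was not tested. The part of these cell types in the results was not tested. In whole nerve, fewer cells of a type and less RNA per cell cannot be told apart.

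Of the genes tested, 1687 (12.1%) had a difference of changes that passed the test (edgeR's quasi-likelihood test, adjusted p under 0.05 by Benjamini-Hochberg), 664 (4.75%) higher and 1023 (7.31%) lower in C22 than in C3. Alone, the C22 change passed for 5887 genes (42.1%) and the C3 change for 4189 (29.9%), while WT-C22 and WT-C3 differed at 3303 genes (23.6%). With scaling by library size only, in place of the trimmed mean of M values (TMM), 1179 genes were higher and 690 lower, so that 63.1% of the calls were higher in place of 39.4%, and the median over all genes moved from -0.03 to 0.08 for the difference and from 0.00 to 0.17 for the C22 change. The genes with a called difference fell into classes by which of the models' own changes also passed. Opposite changes, with both own changes called in opposite directions, were found for 113 genes (0.808%). A further 786 genes (5.62%) changed in C22 only, and 364 genes (2.6%) changed in C3 only. Of the genes that moved the same way in both models, 377 (2.69%) moved further in C22 and 14 (0.1%) further in C3, and at 33 genes (0.236%) neither own change passed alone. The remaining 12306 genes (87.9%) had no called difference. The difference had one sign at all 5 ages for 1476 of the 1687 genes and for 109 of the 113 genes with opposite changes.

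**Figure D1:**
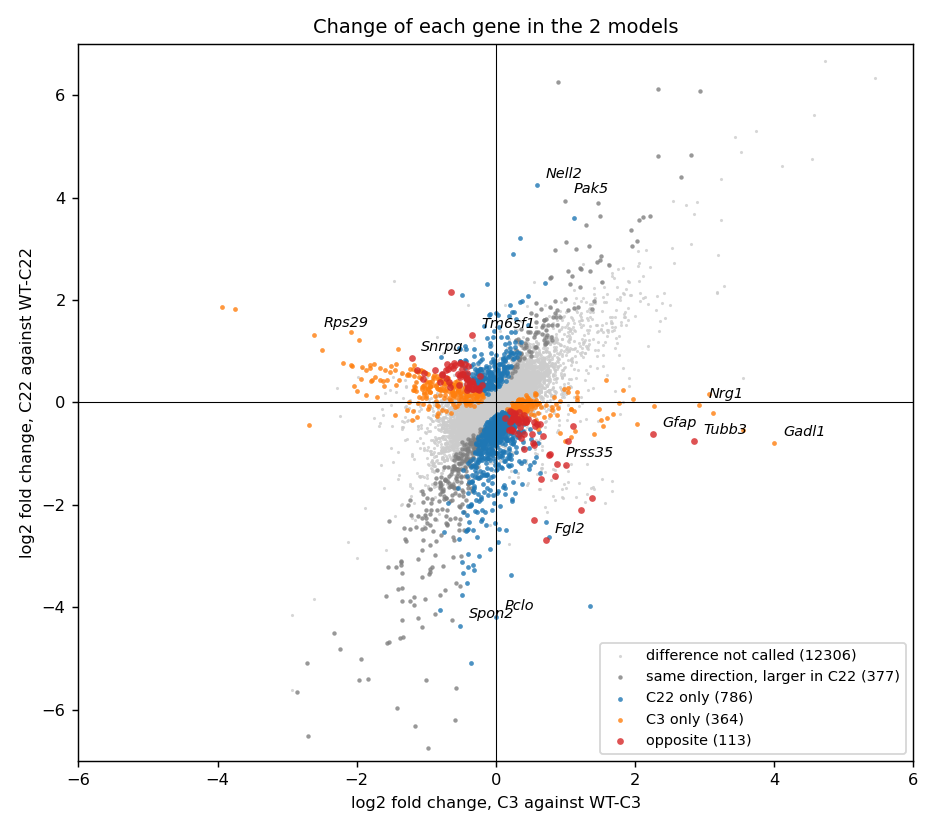
Each point is 1 of the tested genes, with the log2 fold change of C3 against WT-C3 on the x axis and that of C22 against WT-C22 on the y axis (5 libraries per group). Colours give the class of a gene, opposite changes (113 genes) lie in the upper left and lower right quadrants, and 9 genes outside the axis limits of 6 and 7, Shh among them, are not drawn.

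Shh stood at the head of the opposite changes (GRCm39 chr5:28661813-28672254, minus strand). It encodes Sonic hedgehog, a secreted signal of development that injured Schwann cells also make. In the order of age used for all values by library here (3, 5, 7, 9 and 12 weeks), Shh read 9.59, 23.1, 20.2, 24.5 and 10.1 CPM in C3 and 0.779, 1.02, 2.27, 4.03 and 6.56 CPM in WT-C3. It read 0.581, 1.18, 1.5, 1.35 and 3.6 CPM in WT-C22 and was at 0 in all 5 C22 libraries. Every C3 library lay above every WT-C3 library, and every C22 library lay below every WT-C22 library. The WT-C22 libraries held 11 to 144 reads of Shh and the C22 libraries 0 reads in 123490000, so the C22 level was at least 14.3-fold lower against a floor of 3 reads per library. Shh rose in C3 by 2.51 (SE 0.54, adjusted p = 0.0026) on the log2 scale. Of the 13 expressed genes of the Hedgehog list, the difference passed for Shh and for Gas1, a co-receptor for hedgehog proteins that fell in C3 by 1.01 on the log2 scale and had mean levels of 87.2 CPM in WT-C3, 43.4 CPM in C3, 40.2 CPM in WT-C22 and 43.6 CPM in C22. The calls made up 15.4% of that list, near the 12.1% over all genes.

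Tubb3 (chr8:124138163-124150092, plus strand), the tubulin best known from neurons, and Prss35, a secreted protein of the serine protease family, followed the same pattern at every age. Tubb3 read 20.5, 37.3, 30.4, 36.5 and 22.0 CPM in C3 and 3.58, 4.63, 4.32, 3.95 and 3.7 CPM in WT-C3. In C22 it read 1.01, 1.01, 0.89, 0.84 and 0.987 CPM and in WT-C22 1.9, 1.39, 1.25, 1.98 and 1.42 CPM. C3 stood apart from the other groups with no overlap, and the C22 libraries lay just under the lowest WT-C22 library. The C3 change of Tubb3 was 2.85 (SE 0.17, adjusted p = 1.8e-09) and the C22 change -0.75 (SE 0.19, adjusted p = 0.0038), with a lower level in WT-C22 than in WT-C3 to begin with (-1.33). Prss35 read 16.0, 13.3, 12.5, 9.7 and 11.4 CPM in C3 and 7.47, 6.59, 6.25, 7.5 and 7.04 CPM in WT-C3, and 3.72, 3.46, 3.6, 2.85 and 4.44 CPM in C22 and 7.86, 7.59, 8.74, 8.31 and 9.25 CPM in WT-C22. For Prss35 no library of a model overlapped its control, and the controls had like levels. Its changes were 0.88 (SE 0.13, adjusted p = 6.0e-05) in C3 and -1.21 (SE 0.13, adjusted p = 2.3e-07) in C22. Over the genome, the libraries of C22 and WT-C22 did not overlap downward for 14.8% of the genes and those of C3 and WT-C3 did not overlap upward for 9.75%, and both at once held, in either pair of opposite directions, for 22 of the 113 genes.

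Gfap, an intermediate filament of nonmyelinating and immature Schwann cells, and Fgl2, a fibrinogen-like protein made by immune and other cells, also rose in C3 and fell in C22. Gfap read 21.1, 32.3, 20.6, 18.0 and 15.5 CPM in C3 and 3.19, 3.69, 3.75, 5.92 and 5.83 CPM in WT-C3, and 9.19, 6.57, 11.9, 6.75 and 9.94 CPM in C22 and 17.3, 15.0, 14.0, 11.2 and 10.8 CPM in WT-C22. Every C3 library lay above every WT-C3 library, and C22 lay below WT-C22 at each age although the highest C22 and lowest WT-C22 libraries crossed. Its difference of changes was -2.88 (SE 0.31, adjusted p = 3.2e-06), while the C22 change alone (-0.61, SE 0.21, adjusted p = 0.025) no longer passed without the C22 library of 5 or 9 weeks or the WT-C22 library of 3 or 5 weeks, or with scaling by library size only, with an adjusted p of up to 0.099. Fgl2 read 66.1, 71.8, 84.3, 112 and 103 CPM in C22 against 605, 665, 565, 574 and 416 CPM in WT-C22, and 564, 684, 609, 337 and 301 CPM in C3 against 321, 331, 327, 319 and 223 CPM in WT-C3. C22 lay far under its control, and C3 lay above its control at each age although the ranges overlapped. Fgl2 fell in C22 by 2.69 (SE 0.22, adjusted p = 5.6e-09) on the log2 scale. Its C3 rise of 0.72 (SE 0.20, adjusted p = 0.013) was lost without the C3 library of 5 weeks (adjusted p = 0.051).

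**Figure D2:**
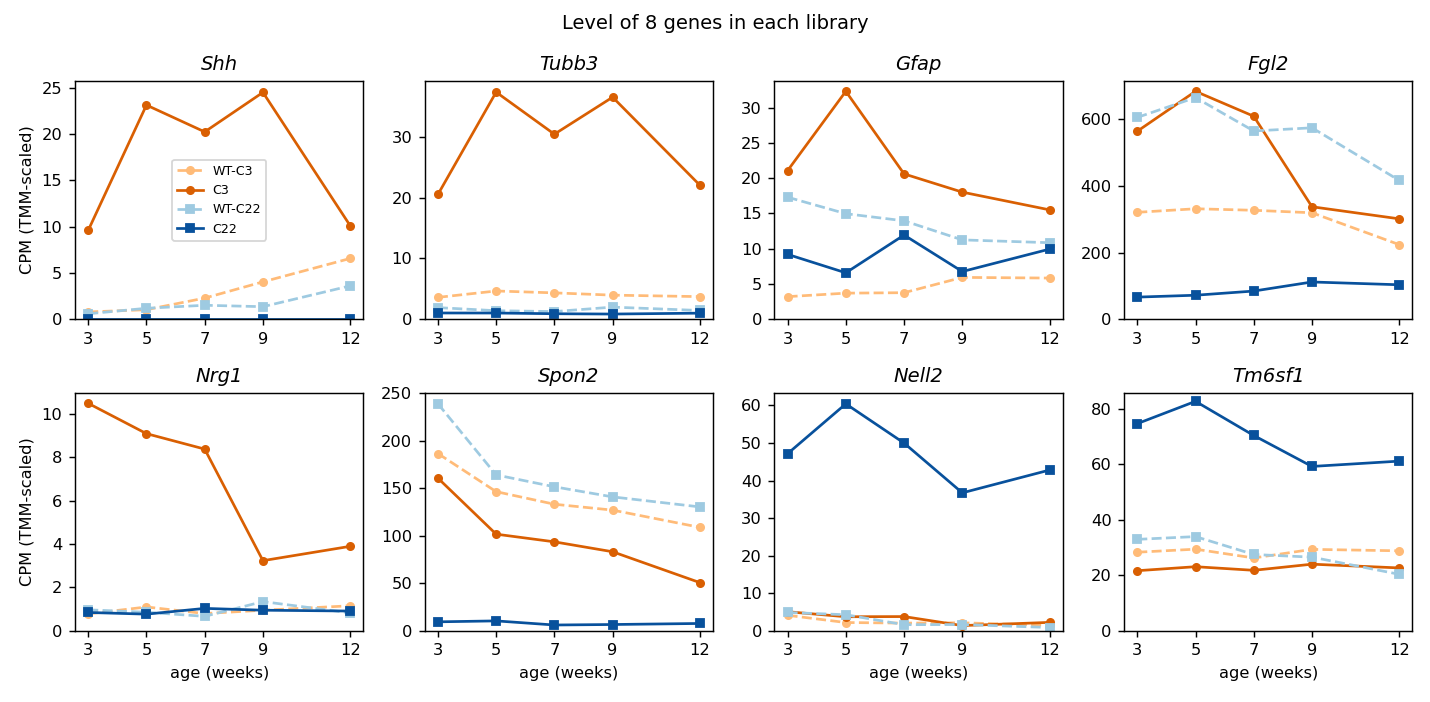
The level in CPM (y axis, scaled by TMM) of 8 genes is plotted against age in weeks (x axis), with 1 point per library and a line per group, dashed for the controls. C3 rises above and C22 falls below its own control for Shh, Tubb3, Gfap and Fgl2, Nrg1 is high in C3 alone, and Spon2 and Nell2 stand apart in C22 alone and Tm6sf1 is high in C22.

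In all, 61 of the 113 genes (0.436% of all genes tested) rose in C3 and fell in C22, and 52 (0.372%) did the reverse. Of these, 11 of the 61 and 7 of the 52 stayed in their class in every alternative run, apart from a stricter threshold and a fit of long transcripts only, and this selection was made after their values were seen. Beside Shh, Tubb3 and Prss35, the 11 held Lama5 and Col12a1 of the extracellular matrix, the bestrophin chloride channel Best3, the microtubule-associated kinase Dclk2, the arginine deiminase Padi2, the guanine nucleotide exchange factor Plekhg1, the potassium channel partner Dpp6 and the neuronal adaptor subunit Ap3b2. Padi2 had mean levels of 49.3 CPM in WT-C3, 107 CPM in C3, 345 CPM in WT-C22 and 249 CPM in C22, so that its C22 level stayed above the C3 level although it fell in C22 by 0.47 and rose in C3 by 1.11 on the log2 scale. Best3 had mean levels of 1.66 CPM in WT-C3, 2.93 CPM in C3, 4.87 CPM in WT-C22 and 1.76 CPM in C22, with changes of 0.85 in C3 and -1.45 in C22. Dclk2 changed by 0.57 in C3 and by -0.46 in C22, from like control levels (34.2 CPM in WT-C3 and 36.0 CPM in WT-C22). With scaling by library size only, the C22 changes of Padi2, Dclk2 and, of the other direction below, Cbx3 were -0.29, -0.28 and 0.42. Dpp6 and Ap3b2 were low, with no group mean above 2.4 CPM. Among the other named members, the ferric reductase Cybrd1, the Bcl-2 relative Bok and the spectrin Sptbn5 fell in C22 by 1.22, 1.49 and 1.02 and rose in C3 by 1.01, 0.65 and 0.78. Their control levels were 4.59, 37.1 and 636 CPM in WT-C3 and 7.57, 48.7 and 1079 CPM in WT-C22. The C3 rises of Bok and Sptbn5 were lost in 8 and 6 of 32 alternatives, and that of Cybrd1 without the C3 library of 5 weeks. The C3 rise of Tmem144 (0.56, SE 0.21, adjusted p = 0.049) was lost in 23 of 32 alternatives.

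Hspe1, Snrpe, Dkk3 and Tm6sf1 were among the genes of the reverse pattern, up in C22 and down in C3. Hspe1, the co-chaperonin that folds proteins in the mitochondrial matrix, read 44.1, 36.3, 23.8, 25.4 and 21.2 CPM in C22 and 18.5, 18.9, 17.3, 15.0 and 20.2 CPM in WT-C22. In C3 it read 18.2, 21.6, 17.4, 33.3 and 26.4 CPM, against 40.5, 28.9, 36.2, 36.4 and 40.0 CPM in WT-C3. All C22 libraries were above all WT-C22 libraries, with the highest levels at 3 and 5 weeks, and C3 overlapped its control only through the library of 9 weeks. Hspe1 rose in C22 by 0.75 (SE 0.19, adjusted p = 0.0029) and fell in C3 by 0.70 (SE 0.19, adjusted p = 0.0092) on the log2 scale. WT-C22 lay below WT-C3 by 1.02, and the mean levels were 36.4 CPM in WT-C3, 23.4 CPM in C3, 18.0 CPM in WT-C22 and 30.2 CPM in C22. Genes such as Hspe1, the Snrp genes and those of ribosomal proteins have near-identical copies elsewhere in the genome, and how reads were split among them makes their levels uncertain. Over the genome, the libraries of C22 and WT-C22 did not overlap upward for 15.5% of the genes and those of C3 and WT-C3 did not overlap downward for 7.9%. Snrpe, a core protein of the spliceosome, had mean levels of 12.8 CPM in WT-C3, 6.85 CPM in C3, 6.9 CPM in WT-C22 and 10.6 CPM in C22, rose in C22 by 0.64 and fell in C3 by 0.88. Its partners Snrpf and Snrpg had differences of 1.61 (SE 0.33, adjusted p = 0.0027) and 2.06 (SE 0.45, adjusted p = 0.0041). Their C22 rises of 0.58 and 0.86 went to 0.27 and 0.57 without the C22 library of 3 weeks and were then not called, as were those of Ndufa3, a subunit of respiratory complex I (0.63 to 0.40), and Tmem258, a subunit of the oligosaccharyl transferase (0.45 to 0.27).

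Dkk3, a secreted member of the Dickkopf family, and Tm6sf1, a membrane protein, had the same direction. Dkk3 had mean levels of 195 CPM in WT-C3, 148 CPM in C3, 149.7 CPM in WT-C22 and 244 CPM in C22, a rise of 0.71 (SE 0.11, adjusted p = 4.2e-05) in C22 and a fall of 0.40 (SE 0.11, adjusted p = 0.011) in C3. Tm6sf1 read 74.7, 82.8, 70.5, 59.3 and 61.2 CPM in C22 and 33.0, 34.0, 27.5, 26.6 and 20.4 CPM in WT-C22, and 21.7, 23.1, 21.8, 24.0 and 22.7 CPM in C3 and 28.3, 29.4, 26.3, 29.4 and 28.8 CPM in WT-C3. C22 was the highest group at every age, and C3 lay under WT-C3 with no overlap by a narrow margin. The C22 rise of Tm6sf1 was 1.31 (SE 0.11, adjusted p = 1.3e-08), and its C3 fall of 0.34 (adjusted p = 0.032) was lost in 9 of 32 alternatives. Beside Hspe1, Snrpe and Dkk3, the 7 that stayed in their class were the iron-sulfur protein Glrx5, the signal peptidase subunit Spcs1, the heterochromatin protein Cbx3 and Taf10, a subunit of the general transcription factor TFIID. They rose in C22 by 0.65, 0.48, 0.25 and 0.49 and fell in C3 by 0.49, 0.43, 0.42 and 0.52. All 4 had a lower level in WT-C22 than in WT-C3, by 0.49, 0.49, 0.54 and 0.83. The kinase Nek11 was at 0.256 CPM in WT-C22 and 8.26 CPM in WT-C3, and its C3 fall was lost in 19 of 32 alternatives. The C3 falls of Gas5, a host transcript of small nucleolar RNAs, and of Lsm5, an RNA-binding protein, went from -0.60 and -0.71 to -0.28 and -0.17 with an offset that takes out each library's trend of counts against transcript length and GC content, and were then not called.

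The 250 bases before the start are shown for 5 of the genes whose opposite changes are given by library above, so that the letters at their starts can be compared. Shh had no entry among the promoters used, and Tm6sf1 was not included. The sequences are those of RefSeq on GRCm38.p6, an older build than that of the gene positions above, at chr8:123411303-123411552 (plus strand) for Tubb3, chr5:21372423-21372672 (plus) for Fgl2, chr11:102897201-102897450 (minus) for Gfap, chr9:86743383-86743632 (plus) for Prss35 and chr1:55087898-55088147 (plus) for Hspe1. Capitals mark matches, on either strand, to 6 motifs. The AP-1 motif was spelled TGANTCA, the Sox motif was spelled ACAANG, the TEAD motif was spelled GGAATG, the CCAAT box was spelled as its name says, the E-box was spelled CACGTG and the GC box was spelled GGGCGG.
Tubb3: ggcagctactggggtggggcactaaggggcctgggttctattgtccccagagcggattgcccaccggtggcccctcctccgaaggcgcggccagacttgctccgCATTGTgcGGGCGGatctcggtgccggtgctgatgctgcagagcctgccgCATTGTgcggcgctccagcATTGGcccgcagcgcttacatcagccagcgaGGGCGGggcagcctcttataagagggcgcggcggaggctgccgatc
Fgl2: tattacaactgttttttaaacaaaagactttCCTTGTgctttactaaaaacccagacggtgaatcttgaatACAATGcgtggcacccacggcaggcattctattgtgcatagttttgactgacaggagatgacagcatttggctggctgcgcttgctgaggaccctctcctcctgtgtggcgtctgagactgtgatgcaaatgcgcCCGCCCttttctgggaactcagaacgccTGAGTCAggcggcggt
Gfap: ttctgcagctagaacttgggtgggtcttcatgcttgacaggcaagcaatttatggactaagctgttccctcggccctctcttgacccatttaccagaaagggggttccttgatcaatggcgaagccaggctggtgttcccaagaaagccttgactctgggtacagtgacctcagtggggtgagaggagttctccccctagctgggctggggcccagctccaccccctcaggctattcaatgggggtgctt
Prss35: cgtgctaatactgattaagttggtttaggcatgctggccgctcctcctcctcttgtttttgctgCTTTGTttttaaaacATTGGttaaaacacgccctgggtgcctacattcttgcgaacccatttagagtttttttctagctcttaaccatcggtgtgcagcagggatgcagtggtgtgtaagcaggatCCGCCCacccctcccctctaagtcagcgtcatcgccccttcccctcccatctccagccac
Hspe1: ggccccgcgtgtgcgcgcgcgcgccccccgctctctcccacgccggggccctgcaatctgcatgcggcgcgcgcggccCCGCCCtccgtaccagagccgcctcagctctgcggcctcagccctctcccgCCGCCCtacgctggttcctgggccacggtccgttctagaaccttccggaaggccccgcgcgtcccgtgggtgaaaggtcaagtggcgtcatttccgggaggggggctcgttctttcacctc
The Fgl2 promoter held the only AP-1 match of the 5, the Gfap promoter held no match, and the Hspe1 promoter held GC boxes alone. Over all 32851 promoters of that length in the table, 6.75% held the AP-1 motif, 36.3% the Sox motif, 12.6% the TEAD motif, 33.9% a CCAAT box, 6.02% an E-box and 32.7% a GC box. Over the 13324 promoters of genes tested, the set to compare with, these shares were 4.51%, 29.0%, 10.8%, 34.6%, 8.00% and 56.6%. Among the genes that rose in C3 and fell in C22 (60 promoters of 46 genes) these shares were 6.67%, 35%, 5%, 38.3%, 1.67% and 63.3%. Among those that did the reverse (49 promoters of 44 genes) they were 2.04%, 26.5%, 14.3%, 32.6%, 8.16% and 65.3%. These are counts of letters, not of bound sites, and motifs may overlap.

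Of the collagens, 8 rose in C3 and 8 fell in C22, and only Col12a1 did both. Of 26 collagens tested, 11 had a lower difference of changes and 0 a higher one, beside 7.31% of all genes lower. Of these 11, 1 had opposite changes, 6 changed in C22 only and 4 in C3 only. In C3 0 collagens fell and in C22 2 rose, and rises and falls over all genes came to 16.9% and 13% in C3 and to 21.2% and 20.9% in C22. The median change of the collagens was 0.23 in C3 and -0.21 in C22, against 0.01 and 0.00 over all genes. Col12a1, a collagen on the surface of fibrils, moved in opposite directions by 0.53 (SE 0.13, adjusted p = 0.0037) in C3 and by -0.80 (SE 0.12, adjusted p = 3.5e-05) in C22, with mean levels of 88.9 CPM in WT-C3, 127 CPM in C3, 127 CPM in WT-C22 and 73.0 CPM in C22. The basement membrane collagens Col4a1 and Col4a2 fell in C22 by 1.15 and 0.88, from 2505 and 1607 CPM in WT-C22, and their C3 changes of 0.12 and 0.19 from 1969.6 and 1362 CPM in WT-C3 did not pass. The falls of perineurial, endothelial and pericyte markers in C22 given above stand beside them, and their part was not tested. Col5a3, a collagen that Schwann cells make, and Col8a2 likewise fell in C22 only, by 0.90 and 2.51. Col2a1, best known from cartilage, rose in C3 only by 1.59 (SE 0.27, adjusted p = 2.5e-04), with mean levels of 11.0 CPM in WT-C3, 32.6 CPM in C3, 10.7 CPM in WT-C22 and 8.67 CPM in C22. With the offset for transcript length and GC content, 9 of the 26 remained lower and the C3 median was 0.06.

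Of the 22 basal lamina genes and their receptors, 5 had a lower difference and 0 a higher one, beside 7.31% and 4.75% of all genes. In C3, 6 rose and 1 fell, and in C22 2 rose and 5 fell, the latter close to the share over all genes. Lama5, a laminin alpha chain, read a mean of 219 ± 17.0 CPM in C3 and 140.2 ± 15.9 CPM in WT-C3, and 131 ± 14.3 CPM in C22 and 176 ± 16.8 CPM in WT-C22 (SD, n = 5). Neither model overlapped its control. Lama5 rose in C3 by 0.64 (SE 0.09, adjusted p = 4.7e-05) and fell in C22 by 0.42 (SE 0.09, adjusted p = 8.6e-04). The value in C3 was 0.25 with the offset, and that in C22 -0.24 with scaling by library size only. Tenascin C (Tnc), a matrix protein of injured and developing nerve, changed in C3 only. It read 97.2, 79.0, 58.6, 27.7 and 24.3 CPM in C3 and 20.2, 14.6, 13.6, 11.9 and 14.8 CPM in WT-C3, and 35.9, 21.0, 19.2, 22.0 and 13.1 CPM in C22 and 19.4, 14.6, 24.8, 23.6 and 23.7 CPM in WT-C22. All C3 libraries lay above all WT-C3 libraries, most of all the youngest, while C22 and WT-C22 overlapped. The C3 change of Tnc was 1.97 (SE 0.32, adjusted p = 1.9e-04) and the C22 change 0.06 (SE 0.31). The integrin beta chain Itgb4 had a C22 fall of 0.70, but its difference was lost in 18 of 32 alternatives. The median of the whole list was 0.23 in C3 and -0.08 in C22, and the latter turned to 0.11 with scaling by library size only.

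Of the 7 nonmyelinating Schwann cell markers, 4 had a lower difference and 0 a higher one, beside 7.31% and 4.75% of all genes. Their medians were 0.43 in C3 and -0.39 in C22. Summed, they read 699.6 to 918 CPM in C3, 606 to 718 CPM in WT-C3, 531 to 643 CPM in C22 and 612 to 802 CPM in WT-C22. The members called were Gfap, Csmd1, the neural adhesion molecule Ncam1 and the neurotrophin receptor Ngfr. Ngfr rose in both models, by 1.79 in C3 and 1.11 in C22, so that it does not share the pattern of Gfap, and its difference was lost in 23 of 32 alternatives. With the offset for length and GC content 1 of the 7, Gfap, was still called, and the calls of Ncam1 and Csmd1 were among those lost.

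The rises in C3 only included growth factors and enzymes. Nrg1 (chr8:32303906-33374825, minus strand), the growth factor that instructs Schwann cells and that they make themselves after injury, read 10.5, 9.09, 8.38, 3.23 and 3.9 CPM in C3 and 0.779, 1.1, 0.796, 0.948 and 1.15 CPM in WT-C3. It read 0.845, 0.768, 1.03, 0.949 and 0.911 CPM in C22 and 0.968, 0.855, 0.666, 1.35 and 0.825 CPM in WT-C22. Each C3 library lay above all other libraries, and the other 3 groups overlapped near 1 CPM. The C3 change of Nrg1 was 2.93 (SE 0.28, adjusted p = 6.2e-07), the C22 change was -0.05 (SE 0.28), and the difference was -2.98 (SE 0.40, adjusted p = 3.7e-05). Gadl1, an enzyme that decarboxylates acidic amino acids, read 28.7, 25.1, 17.1, 10.2 and 6.43 CPM in C3 and 0.389, 1.18, 0.341, 2.37 and 1.15 CPM in WT-C3, and 1.15, 1.06, 0.712, 0.803 and 1.21 CPM in C22 and 0.968, 1.71, 1.67, 1.74 and 2.37 CPM in WT-C22. Here too C3 alone stood apart, with its highest level at 3 weeks, and the C3 change was 4.00 (SE 0.44, adjusted p = 2.7e-06). Clca3a2, a member of the calcium-activated chloride channel regulators, and Ankrd63 rose in C3 by 3.12 and 3.06, from 0.809 and 0.661 CPM in WT-C3, and stayed at 0.648 and 1.03 CPM in C22 beside 0.794 and 0.987 CPM in WT-C22. The matrix protease Mmp17, the glycolytic regulator Pfkfb4 and gliomedin (Gldn), a Schwann cell protein that gathers sodium channels at the node, also rose in C3 only, by 0.93, 1.04 and 0.56. Serpina1b, of a family of near-identical copies whose reads are uncertain, also rose in C3 only, with mean levels of 0.0744 CPM in WT-C3, 1.53 CPM in C3, 13.5 CPM in WT-C22 and 9.38 CPM in C22. In all, 134 genes (0.958%) rose and 230 (1.64%) fell in C3 only, of which 24 and 61 stayed in their class in every alternative named above.

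Falls in C3 passed for 13 of 34 ribosomal protein genes and 15 of 30 genes of oxidative phosphorylation, and falls in C22 for 0 and 1 of them. Of the 34 cytosolic ribosomal protein genes, 17 had a higher difference and 0 a lower one, beside 4.75% of all genes higher. In C3, 0 rose and 13 fell (median -0.28), beside 16.9% and 13% of all genes. In C22 10 rose and 0 fell (median 0.35), beside 21.2% and 20.9% of all genes. By age, the C22 median of the list ran from -0.22 to 0.85 and was above 0 at 4 of the 5 ages. In WT-C22 19 were below WT-C3 and 0 above (median -0.53), beside 11.6% of all genes lower. Rps29, of the small subunit, read 3.91, 3.58, 3.02, 45.3 and 10.9 CPM in C3 and 50.8, 38.2, 52.2, 54.8 and 76.6 CPM in WT-C3, and 43.9, 10.1, 5.63, 5.15 and 5.01 CPM in C22 and 4.1, 12.2, 3.04, 3.29 and 6.95 CPM in WT-C22. The C3 library of 9 weeks and the C22 library of 3 weeks stood far above the rest of their groups, and both models overlapped their controls. The difference for Rps29 was 3.93 (SE 1.01, adjusted p = 0.014), and WT-C22 lay below WT-C3 by 3.28. Rpl38, Rps28 and Rpl23 had differences of 2.81, 3.19 and 1.16, with control levels of 46.2, 50.3 and 226 CPM in WT-C3 and 8.45, 8.64 and 119.9 CPM in WT-C22. The list's count of 17 ranged from 9 to 22 when 1 library was left out and was 10 with the offset for length and GC content and 6 when only transcripts over 1500 bases were fitted.

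Of the 30 genes of oxidative phosphorylation, 14 had a higher difference and 0 a lower one, beside 4.75% of all genes higher. In C3, 0 rose and 15 fell (median -0.28), beside falls of 13% of all genes. In C22 2 rose and 1 fell (median 0.20), beside 21.2% and 20.9% of all genes. By age, the C22 median of the list ran from -0.36 to 0.38 and was above 0 at 4 of the 5 ages. Between the controls, 5 were higher and 10 lower in WT-C22 (median -0.05), beside 12% and 11.6% of all genes. Ndufa4, a subunit of the respiratory chain, read 20.5, 24.2, 22.5, 24.5 and 37.8 CPM in C3 and 50.5, 46.0, 61.0, 57.2 and 43.0 CPM in WT-C3, and 51.9, 41.7, 30.6, 42.5 and 28.1 CPM in C22 and 29.3, 36.5, 25.2, 29.5 and 40.1 CPM in WT-C22. The C3 libraries were all below WT-C3, and C22 overlapped its control. Ndufa4 fell in C3 by 0.99 (SE 0.18, adjusted p = 5.6e-04), and its C22 change of 0.28 (SE 0.18) did not pass. Cox7b and Uqcrq, subunits of complexes IV and III, fell in C3 by 0.95 and 0.80, with WT-C22 below WT-C3 by 0.90 and 0.60. The C3 change of Ndufa4 was -0.54 and that of Cox7b -0.61 with the offset for length and GC content. The count of 14 was 12 with that offset and 3 when only transcripts over 1500 bases were fitted, and it ranged from 12 to 17 when 1 library was left out. Of 31 proteasome subunits, 3 had a higher difference and 0 a lower one, with medians of 0.11 in C22 and -0.09 in C3 (0.04 with the offset).

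Transcript length moved with these results, and its part in them was not tested. Among the 246 genes with a transcript of up to 600 bases, the median difference was 0.44 and 23.6% were called higher, whereas among the 2294 genes over 6000 bases the median was -0.13 and 1.79% were called higher and 12.2% lower. The shortest genes had medians of -0.37 in C3, 0.22 in C22 and -0.39 in WT-C22 against WT-C3. By library, genes of up to 1000 bases deviated from their mean over libraries by 0.13 to 0.26 in WT-C3, -0.22 to 0.25 in C3, -0.12 to 0.25 in C22 and -0.22 to -0.03 in WT-C22 on the log2 scale. The C3 library of 9 weeks and the C22 library of 3 weeks, high for Rps29, had the highest values of their groups. Ribosomal protein genes over 1000 bases still had a median difference of 0.56, against 0.86 for the shorter ones, and genes of oxidative phosphorylation had 0.19 against 1.1. The median transcript was 1362.5 bases for genes up in C22 and down in C3, 4496 bases for the reverse, 1135 bases for falls and 5353.5 bases for rises in C3 only, and 3396 bases over all genes tested. With the offset, 73 genes had opposite changes, 45 of them among the 113, and 20 of the 52 and 25 of the 61 stayed.

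**Figure D3:**
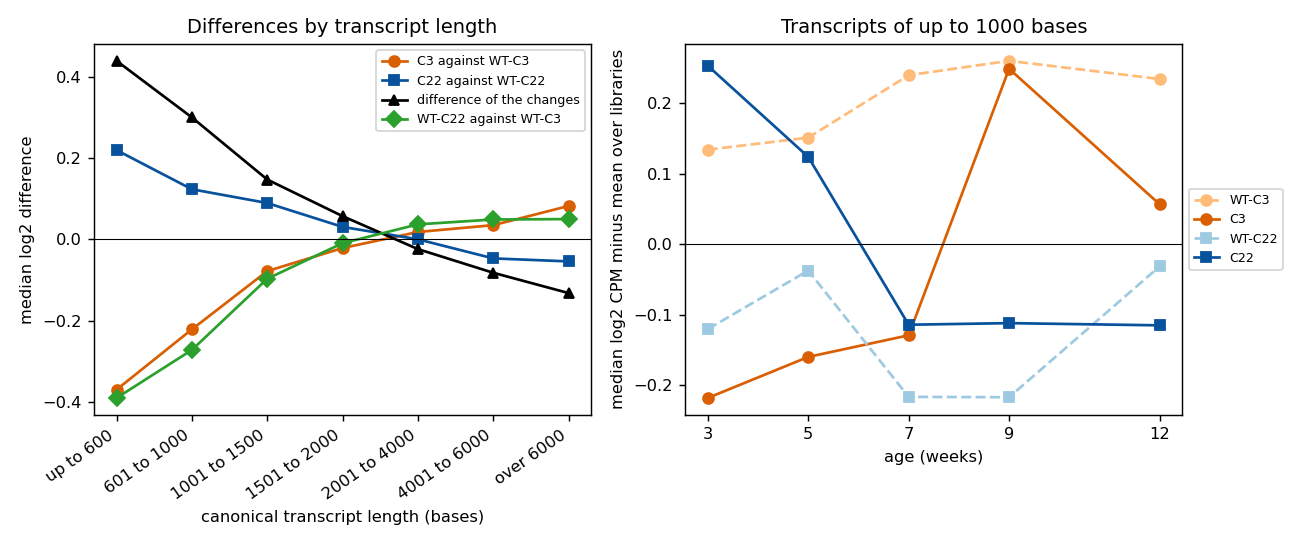
Left, the median log2 difference (y axis) over genes binned by the length of their transcript in bases (x axis), for each model against its control, for the difference of the changes and for WT-C22 against WT-C3. Right, the median deviation of genes of up to 1000 bases from their mean over libraries (y axis, log2 CPM) against age in weeks, 1 point per library. Short transcripts lie below 0 for C3 and above 0 for C22, and WT-C3 libraries are the ones that stay above 0 at all 5 ages.

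Changes in C22 only were the larger class, with 535 falls (3.82%) and 251 rises (1.79%), of which 188 and 86 stayed in their class in every alternative named above. Spon2 (chr5:33353751-33378075, minus strand), a secreted matrix protein, read 9.43, 10.4, 6.09, 6.61 and 7.7 CPM in C22 and 239, 164, 152, 141 and 130.3 CPM in WT-C22. It read 161, 102, 93.6, 83.2 and 50.7 CPM in C3 and 187, 146, 133, 127 and 109 CPM in WT-C3. The C22 libraries lay far under all others, and C3 overlapped WT-C3. Spon2 fell in C22 by 4.36 (SE 0.27, adjusted p = 1.2e-10) on the log2 scale, beside -0.51 (adjusted p = 0.11) in C3. Piccolo (Pclo) and Rims1, scaffold proteins known from the presynaptic active zone, fell in C22 as well. Pclo read 0.304, 0.336, 0.285, 0.365 and 0.607 CPM in C22 and 9.48, 8.44, 7.41, 6.1 and 3.87 CPM in WT-C22, against 17.0, 11.7, 9.61, 6.01 and 10.9 CPM in C3 and 11.1, 12.8, 13.1, 10.0 and 10.3 CPM in WT-C3. No C22 library reached the lowest library of any other group. Pclo fell by 4.19 (SE 0.29, adjusted p = 6.1e-10) in C22 and changed by 0.00 (SE 0.23) in C3, and Rims1 fell by 3.77 in C22 from 5.91 CPM in WT-C22, with 7.63 CPM in WT-C3. Ccer2 and Sowahb fell in C22 by 4.06 and 3.98, and Sowahb was at 5.53 CPM in WT-C22 but 0.473 CPM in WT-C3. In C3 Sowahb read a mean of 1.39 CPM, above its control at all 5 ages, with a change of 1.36 (SE 0.52, adjusted p = 0.055) that did not pass.

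Secreted factors and regulators fell in C22 only too. Lif, a cytokine of repair Schwann cells, read 1.66, 1.06, 1.99, 2.12 and 2.05 CPM in C22 and 7.39, 8.55, 12.6, 12.6 and 9.35 CPM in WT-C22, against 7.64, 7.86, 8.04, 10.2 and 7.25 CPM in C3 and 8.33, 9.11, 9.55, 11.2 and 11.8 CPM in WT-C3. The C22 libraries were lower than every other library, and C3 overlapped its control. Lif fell in C22 by 2.50 (SE 0.18, adjusted p = 1.5e-09), while the C3 change of -0.33 (adjusted p = 0.17) did not pass. Tead4, a transcription factor that binds DNA for YAP and TAZ, had mean levels of 20.0 CPM in WT-C3, 20.1 CPM in C3, 19.5 CPM in WT-C22 and 5.55 CPM in C22 and fell in C22 by 1.81 (SE 0.13, adjusted p = 1.0e-09), beside -0.04 (SE 0.13) in C3. Of the 15 expressed genes of YAP and TAZ, 4 had a lower difference and 0 a higher one, beside 7.31% and 4.75% of all genes. Their medians were -0.48 in C22 and -0.13 in C3, and 2 were lower and 1 higher with the offset for length and GC content. The others called were Tead3, a relative of Tead4 that rose in C3 only by 0.45, and Ajuba and Amotl1, which bind the Hippo pathway kinases or YAP and fell in C22 only by 0.97 and 0.48. The differences of Tead3 and Amotl1 were lost in 9 and 10 of 32 alternatives. Osteopontin (Spp1), a secreted phosphoprotein of Schwann cells and macrophages, fell in C22 by 3.17 and had mean levels of 643 CPM in WT-C3, 514 CPM in C3, 135 CPM in WT-C22 and 15.0 CPM in C22. The macrophage list that holds Spp1 had 1 of 23 members with a called difference. Hbegf, a growth factor that binds the EGF receptor, fell in C22 only by 1.08, from 66.3 CPM in WT-C22, with 68.6 CPM in WT-C3.

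Genes of the node and paranode fell in C22 more than in C3. Of 14 expressed members, 8 had a lower difference and 0 a higher one, beside 7.31% and 4.75% of all genes. In C22 9 fell and 3 rose (median -0.51), beside 20.9% and 21.2% of all genes. In C3 2 fell and 3 rose (median 0.07, or -0.03 with the offset for length and GC content), beside 13% and 16.9%. The list's median transcript was 6489 bases, and of all genes over 6000 bases 12.2% were called lower. Ankyrin G (Ank3) and Nrcam, which anchor sodium channels at the node, fell in C22 by 0.79 (SE 0.09, adjusted p = 6.6e-07) and 0.97 (SE 0.15, adjusted p = 2.3e-05), with C3 changes of 0.08 and 0.10 that did not pass. Their control levels were 307 and 75.1 CPM in WT-C22 and 338 and 78.1 CPM in WT-C3. Cadm4, an adhesion molecule of the Schwann cell surface along the internode, and Dlg1, a scaffold protein, fell in C22 only by 0.99 and 0.42. Cadm3, a binding partner of Cadm4, fell in both models, by 1.48 in C22 and 0.40 in C3. Gldn, of this list, rose in C3 only, as given above. The count of 8 was 7 with that offset and stayed at 8 or 9 when 1 library was left out.

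Of 24 ion channels, 4 had a lower difference (beside 7.31% of all genes) and 0 a higher one, all 4 with a fall in C22 only. The list as a whole went both ways in C22, with 6 rises, 9 falls and a median of -0.04, and in C3 6 rose and 1 fell (median 0.22). These were the potassium channel parts Kcnab2 (-0.83) and Kcnk13 (-0.98), the chloride channel Clcn2 (-0.47) and the mechanically gated channel Piezo2 (-0.67). Their control levels ran from 10.5 to 183 CPM. Of 16 myelin proteins, 5 had a lower difference, and the count of lower differences ranged from 2 to 5 over the alternatives apart from the stricter threshold. Drp2, which with periaxin holds myelin to the basal lamina, had the largest difference of these, -2.04. Drp2 had a mean of 477 ± 147 CPM in C22 and 2678 ± 503 CPM in WT-C22, against 2124 ± 239 CPM in C3 and 2909 ± 319 CPM in WT-C3. Drp2 fell in C22 by 2.49 (SE 0.18, adjusted p = 1.0e-09) and in C3 by 0.45, a call that was lost in 18 of 32 alternatives. The differences of Mbp (-0.78), Gjb1 (-0.79) and periaxin (Prx, -0.66), 3 structural proteins of myelin, were each lost with the offset for length and GC content, with adjusted p of 0.073, 0.056 and 0.13.

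Rises in C22 only were led by Nell2 (chr15:94973111-95465972, minus strand), a secreted glycoprotein known from neurons. Nell2 read 47.1, 60.4, 50.0, 36.7 and 42.8 CPM in C22 and 4.88, 4.27, 1.62, 1.66 and 0.875 CPM in WT-C22. It read 5.08, 3.74, 3.79, 1.39 and 2.24 CPM in C3 and 4.13, 2.2, 2.05, 2.13 and 1.46 CPM in WT-C3. C22 stood apart from all other groups, which overlapped with each other. Nell2 rose in C22 by 4.24 (SE 0.38, adjusted p = 2.3e-08) on the log2 scale, and in C3 it changed by 0.59 (adjusted p = 0.28). The adenylyl cyclase Adcy2 read 50.6, 60.7, 48.9, 39.0 and 36.6 CPM in C22 and 5.03, 4.06, 5.29, 5.5 and 5.35 CPM in WT-C22, and 17.8, 22.8, 20.1, 23.6 and 15.2 CPM in C3 and 17.1, 14.2, 11.9, 20.4 and 13.1 CPM in WT-C3. It rose in C22 by 3.20 (SE 0.17, adjusted p = 1.2e-11), from a WT-C22 level that lay 1.59 below WT-C3. Gpr37, a receptor of myelinating glia, had mean levels of 3.05 CPM in WT-C3, 6.4 CPM in C3, 2.2 CPM in WT-C22 and 25.6 CPM in C22 and rose in C22 by 3.61, but its difference of 2.49 (SE 0.68, adjusted p = 0.02) was lost without the WT-C3 library of 3 weeks (adjusted p = 0.066). The netrin receptor Unc5a rose in C22 by 2.90 but only to 1.59 CPM, from 0.195 CPM in WT-C22, and it was higher in WT-C3 and C3 at 5.44 and 6.45 CPM. Gfra3, the co-receptor for artemin, the glutathione transferase Gstp1, which has a near-identical copy, and the transcription factor Mitf rose in C22 only by 1.28, 0.82 and 0.38. Their WT-C22 levels were 2.12, 87.1 and 27.5 CPM and their WT-C3 levels 4.07, 66.8 and 29.1 CPM.

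Genes that moved the same way in both models but further in C22 included some of the largest differences. Cldn14, a tight junction protein, read 0.135, 0.048, 0.178, 0 and 0.152 CPM in C22 and 9.1, 7.05, 8.37, 9.38 and 10.3 CPM in WT-C22, and 4.12, 6.05, 4.35, 6.01 and 2.82 CPM in C3 and 8.1, 10.7, 8.87, 12.5 and 10.3 CPM in WT-C3. Both models lay below their controls with no overlap, and C22 was close to 0. The forkhead factor Foxi2 and the cytochrome P450 Cyp2j13 fell to 0.648 and 0.634 CPM in C3 and to 0.0073 and 0.0172 CPM in C22, from 5.43 and 11.0 CPM in WT-C3 and 4.54 and 17.8 CPM in WT-C22. Slit2, a guidance cue, Tgfa, an EGF receptor ligand, and Bmp7, a bone morphogenetic protein, fell in C22 by 2.49, 2.63 and 2.27 and in C3 by 0.52, 0.62 and 0.59, with WT-C22 levels of 234, 113 and 91.7 CPM and WT-C3 levels of 241, 135 and 120.2 CPM. Upward, Pou3f1, a transcription factor of promyelinating Schwann cells, had mean levels of 37.1 CPM in WT-C3, 163 CPM in C3, 36.3 CPM in WT-C22 and 448 CPM in C22 and rose in C22 by 3.63 (SE 0.20, adjusted p = 2.1e-11) and in C3 by 2.12 (SE 0.19, adjusted p = 2.6e-07). Sox4 and Id2, regulators that hold back myelination, rose by 2.73 and 2.25 in C22 and by 1.46 and 1.22 in C3, and the neuregulin receptor Erbb3 rose by 1.28 and 0.72. The p21-activated kinase Pak5, the phosphatase subunit Ppp2r2c, the microtubule protein Slain1 and the contactin Cntn6 rose in both models with differences of 2.95, 3.13, 3.78 and 5.36, with levels below 3 CPM in both controls. Of 20 cholesterol synthesis genes, 11 had a lower difference and 0 a higher one, beside 7.31% and 4.75% of all genes. They fell in both models (medians -2.16 in C22 and -1.04 in C3), so that they make a difference of size and not of direction.

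Growth factor and guidance signals were split between the classes. Of 28 genes of axon guidance and neurotrophic signalling, 4 had a lower difference and 1, Gfra3, a higher one. Ntrk3, the receptor of neurotrophin 3, fell in C22 only by 0.74 (SE 0.15, adjusted p = 5.9e-04) and had mean levels of 69.2 CPM in WT-C3, 75.9 CPM in C3, 100.2 CPM in WT-C22 and 60.1 CPM in C22. The secreted semaphorins Sema3b and Sema3f also fell in C22 only, by 0.45 and 0.24, and the difference of Sema3b was lost with the offset for length and GC content and that of Sema3f in 6 of 32 alternatives. Of 26 genes of TGF-beta, BMP and activin signalling, Tgfb2, a ligand, rose in C22 only by 0.81 (SE 0.19, adjusted p = 0.002) from 7.61 CPM in WT-C22, with 8.67 CPM in WT-C3, and the call of Smad3 was lost in 25 of 32 alternatives. Of 14 Notch genes, the receptor Notch2 fell in C22 only by 0.54 and the feedback inhibitor Nrarp rose in C22 only by 0.54. Of 24 genes of the mTOR and AKT pathway, 3 were called, and the differences of the kinase Mtor, its inhibitor Tsc2 and the stress protein Sesn1 were lost in 26, 24 and 10 of 32 alternatives. In all, a difference was called for 17.9% of the genes of axon guidance and neurotrophic signalling, 11.5% of TGF-beta, BMP and activin signalling, 14.3% of Notch and 12.5% of the mTOR and AKT pathway, beside 12.1% over all genes.

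Of 19 genes of antigen presentation, 2 had a lower difference and 0 a higher one (10.5% called, beside 12.1% of all genes), with a median difference of 0.04, and in C22 3 fell and 1 rose. Of 12 complement genes, 2 had a lower difference and 0 a higher one, beside 7.31% and 4.75% of all genes. H2-DMa and H2-DMb1, which load peptides on class II MHC, fell in C22 by 1.83 and 1.76. Their C3 changes were -0.48 (SE 0.13, adjusted p = 0.0098) and -0.32 (SE 0.18, adjusted p = 0.19), and H2-DMb1 stood at 41.9 CPM in WT-C22 and 119 CPM in WT-C3. The complement inhibitors Cd55 and Cd59a fell in both models and further in C22, by 1.63 and 1.1 against 0.65 and 0.36, from like levels in both controls. Il34, a ligand of the macrophage receptor Csf1r, moved in opposite directions, by 0.44 (SE 0.11, adjusted p = 0.0041) in C3 and -0.38 (SE 0.10, adjusted p = 0.0058) in C22. Its C22 call was lost with scaling by library size only. The heme oxygenase Hmox1 fell in both models and further in C22, by 1.08 against 0.54, from 101 CPM in WT-C22 and 53.0 CPM in WT-C3, and its difference was lost without the WT-C3 library of 3 weeks. The macrophage sums given above stand beside these genes, and their part was not tested. Those sums had lower ranges in FVB/NRJ than in C57BL/6J nerve but include Spp1, so they do not measure macrophages alone.

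Lists of lipid handling and of signals to Schwann cells held further calls, mostly of genes that moved the same way in both models or in C22 only. Over all genes tested, 7.31% had a lower difference and 4.75% a higher one, shares that stand beside each list of this paragraph. Of 10 genes of sterol sensing and uptake, 5 had a lower difference and 0 a higher one. Stard4, a sterol carrier, fell in C22 by 1.88 and in C3 by 0.92, whereas the differences of Srebf2 and Scap were lost with the offset for length and GC content and that of Npc1 in 25 of 32 alternatives. Of 15 genes of fatty acid synthesis and elongation, 4 had a lower difference and 0 a higher one, all 4 with falls in both models. The desaturases Fads1 and Fads2 fell in C22 by 1.58 and 1.79 and in C3 by 0.81 and 0.80, and the differences of Elovl6 and Fa2h were lost in 21 and 24 of 32 alternatives. Of 9 expressed repair Schwann cell genes, 3 had a lower difference, Shh and Lif among them, and 1, Sox4, a higher one. In each model 7 of the 9 rose (medians 1.25 in C22 and 1.46 in C3), beside 21.2% of all genes in C22 and 16.9% in C3. Of 11 genes of neuregulin and ErbB signalling, Nrg1, Hbegf and Tgfa had a lower difference and Erbb3 a higher one, as given above. Of 15 immature markers and negative regulators of myelination, 3 (Gfap, Ngfr and Ncam1) had a lower difference and 2 (Id2 and Id4) a higher one, and that of Id4 was lost in 13 of 32 alternatives. Of 21 genes of glutathione and the NRF2 response, 3 (Hmox1, Nqo1 and Srxn1) had a lower difference and 2 (Gstp1 and Mt1) a higher one. The differences of Nqo1 and Srxn1 were lost in 21 and 4 of 32 alternatives and that of Mt1 in 15 of 31.

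Some lists held few or no calls. The calls were 0 higher and 0 lower of 13 genes of ERK feedback, 0 higher and 0 lower of 17 circadian genes, 0 higher and 0 lower of 10 genes of the glucocorticoid response, 0 higher and 0 lower of 13 fibroblast markers, 0 higher and 1 lower of 16 chemokines and cytokines and 1 higher and 0 lower of 26 genes of ER stress and folding. Of the 4 lists with 0 calls by edgeR, 2 genes of ERK feedback, 0 circadian genes, 2 genes of the glucocorticoid response and 2 fibroblast markers had an unadjusted p under 0.05, and DESeq2 called 1, 0, 0 and 0. Cell cycle genes rose in both models, 24 of 30 in C22 and 21 of 30 in C3 (medians 1.38 and 1.08), beside 21.2% and 16.9% of all genes. Of the 30, 4 (13.3%) had a higher difference, beside 4.75% of all genes. Among those, Bub1b, a mitotic checkpoint kinase, was at 0.97 CPM in WT-C22 and 6.8 CPM in WT-C3, and the replication helicase subunits Mcm6 and Mcm7 had differences of 0.91 and 0.66. Just inside the threshold lay Ctbs, a lysosomal chitobiase, with a difference of -0.42 (SE 0.14, adjusted p = 0.0499), and just outside it Rpl11, a ribosomal protein, with 0.76 (SE 0.25, adjusted p = 0.0501).

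**Figure D4:**
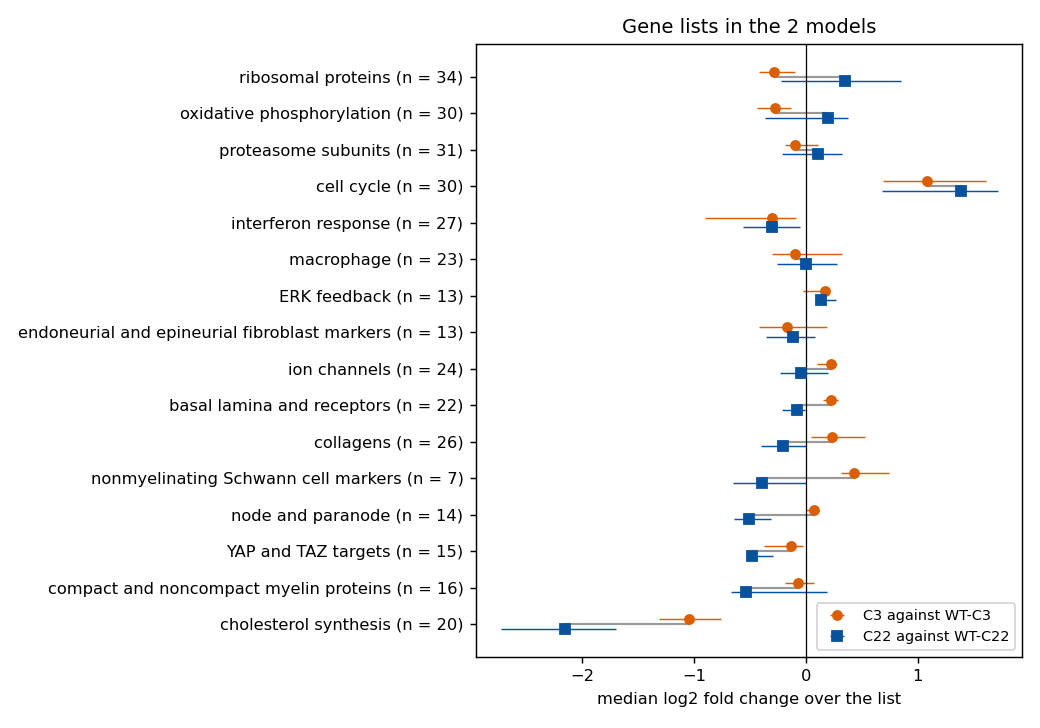
For 16 gene lists, the median log2 fold change over the expressed members (x axis) in C3 against WT-C3 (circles) and in C22 against WT-C22 (squares), with bars from the lowest to the highest of the 5 age-matched medians. Collagens, basal lamina genes and nonmyelinating Schwann cell markers lie above 0 in C3 and below 0 in C22 (basal lamina genes at 0.11 in C22 with scaling by library size only), ribosomal proteins and oxidative phosphorylation do the reverse, and cholesterol synthesis lies below 0 in both. The C22 bars of ribosomal proteins, oxidative phosphorylation and nonmyelinating Schwann cell markers cross 0.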

How the data were processed

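Bulk RNA-seq was made from pooled sciatic nerves, and the authors deposited whole-number gene counts, 1 table column per library, with no normalization. Per the labels and the study's methods, RNA was extracted with Trizol, poly(A) selected and turned into stranded libraries with molecular identifiers, and reads were trimmed with cutadapt 2.10, aligned with STAR 2.7.5a to GRCm39 joined with the human locus, deduplicated with UMI-tools 1.1.1 and counted over Ensembl genes with HTSeq 0.12.4. The 5 summary lines of HTSeq were left out of library sizes. Deduplicated counts hold fewer copies made by PCR, and the total of 2140140 to 49072700 counts per library sets the precision of low genes. The floor of 3 counts covers counting error only.

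Here the 20 libraries of the 4 groups were fitted in 1 model of groups with edgeR 4.0.16 (R 4.3.3, quasi-likelihood test, TMM scaling, biological coefficient of variation 0.187), and Benjamini-Hochberg adjustment ran over 13993 genes. Levels are CPM scaled by TMM. DESeq2 1.42.0, other scalings and filters, a block for age, an offset for transcript length and GC content (mgcv 1.9-3), long transcripts alone and the removal of each library were alternatives. The offset and the fit of long transcripts were chosen after seeing the data. Ages were not used as pairs, since not every same-age correlation was above 0.1, so p-values rest on the spread between pools of different ages. On simulated counts of 13993 genes, of which 200 were changed in the difference, the test recovered 4% at a log2 difference of 0.5, 60% at 1, 76% at -1 and 100% at 2, and called 8 of 13793 unchanged genes. The simulation gave all genes a common dispersion and no trend with age or transcript length, and the changed genes had a mean of 5 CPM or more. These shares therefore check the working of the test and do not give its error rates on the real libraries.

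Named genes were, at 5 CPM or more in a group and 1 sign at all 5 ages, the 10 largest differences each way and the 5 largest own changes each way of the genes changed in C22 only and in C3 only, the 10 largest opposite changes each way, up to 6 called members per list, and the genes next to the threshold. Genes described as staying in their class in every alternative were chosen after seeing values. The members and lists were chosen with earlier results of these data known, and lists are described by counts and medians with no test. Gene positions are from GENCODE M39 on GRCm39. Results on some genes are not reported here.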

Additional observations from a re-analysis of the deposited data

Results flagged for a closer look

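The changes of the models differed from each other by the test of the difference itself for 113 genes with opposite changes, 786 genes changed in C22 only and 364 genes changed in C3 only. Of the opposite changes named by rule, the difference of changes on the log2 scale was lower in C22 for Tubb3 (-3.60), Fgl2 (-3.41), Gfap (-2.88), Tmem144 (-2.85), Cybrd1 (-2.23), Bok (-2.15), Prss35 (-2.09) and Sptbn5 (-1.79). The fitted value for Shh was -10.80, which depends on the prior count since all 5 C22 libraries were at 0, and is no bound. The difference was higher in C22 for Nek11 (2.79), Snrpg (2.06), Ndufa3 (1.76), Tm6sf1 (1.65), Snrpf (1.61), Snrpe (1.51), Tmem258 (1.50), Hspe1 (1.45), Gas5 (1.36) and Lsm5 (1.35).

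Of 88 groups of 5 libraries, from the 22 genes given by library, 8 held 1 library far from the other 4 by Dixon's criterion, where chance gives about 1 in 20. At 3 weeks these were Nell2 in WT-C3 (4.13 CPM), Gpr37 in WT-C3 (7.47 CPM) and Rps29 in C22 (43.9 CPM). At 9 weeks they were Rps29 in C3 (45.3 CPM) and Lif in C3 (10.2 CPM). At 12 weeks they were Fgl2 in WT-C3 (223 CPM), Pclo in C22 (0.607 CPM) and Ndufa4 in C3 (37.8 CPM). The Gpr37 library was also the one without which its difference was lost.

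In the 5 C3 libraries with c-Jun knocked out in Schwann cells, which entered no comparison, the lowest level of Gadl1 was 8.86 CPM, above every WT-C3 library.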

How the results depend on the processing

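No called change or difference of a named gene turned its direction in another setting. Medians of some lists did, as given above for basal lamina genes, proteasome subunits and genes of the node and paranode. With scaling by library size only, more differences were called higher than lower, the reverse of the main run. With each library left out, the genes higher in the difference numbered 491 to 832, those lower 796 to 1152, opposite changes 78 to 138, changes in C22 only 595 to 920 and in C3 only 250 to 443, and the genes changed in C22 5082 to 6226, in C3 3329 to 4382 and between the controls 2673 to 3655. Without the shallowest library, that of C3 at 9 weeks, 832 were higher, 1119 lower and 138 opposite. With scaling by library size only, 1179 genes were higher. Without a filter on low counts, which tests 34082 genes, 67 were opposite. With an adjusted p under 0.01, 283 were higher, 566 lower, 25 opposite, 482 changed in C22 only and 130 in C3 only, with 2362 changed in C3 and 1949 between the controls. With the offset for length and GC content, 73 were opposite and 231 changed in C3 only, and with transcripts over 1500 bases alone 181 changed in C3 only. Where no construction of the setting shows it, the cause was not tested. Of the 113 opposite changes, 105 were shared with the 131 of DESeq2, 60 with the 158 under library size only and 74 with the 83 found when each model was fitted alone.

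Deviations of same-age samples correlated by -0.31 to 0.64 between groups (23 of 30 correlations positive, 14 above 0.1, and 0.04 to 0.64 between the controls), so that age was shared in part but did not meet the criterion for pairing, which was a correlation above 0.1 in every pair. With age as a replicate block, 800 genes were higher, 1252 lower, 144 opposite, 922 changed in C22 only and 414 in C3 only.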

Other observations

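Levels in the 5 C3 libraries with c-Jun knocked out in Schwann cells, scaled over all 25 libraries, are given beside those of C3 and WT-C3 as values only. Shh, with a median of 7.36 CPM and a range of 5.66 to 9.39 CPM, lay below the lowest C3 library (9.57 CPM) and above the WT-C3 median of 2.30 CPM. Its range overlapped that of WT-C3, whose highest library read 6.62 CPM. Gfap, at 6.06 to 10.3 CPM, lay below all C3 libraries (15.5 to 32.6 CPM) and above all WT-C3 libraries (3.21 to 5.98 CPM). Tubb3, at 18.5 to 26.9 CPM, overlapped C3 (20.5 to 37.7 CPM) and lay above WT-C3 (3.61 to 4.68 CPM). Nrg1, at 5.84 to 13.9 CPM, overlapped C3 (3.28 to 10.5 CPM), and Gadl1, at 8.86 to 24.9 CPM, lay within the C3 range of 6.41 to 28.7 CPM. Prss35, at 15.6 to 24.3 CPM, reached above C3 (9.84 to 16.0 CPM). Tnc, the matrix protein, had a median of 18.6 CPM, against 58.6 CPM in C3 and 14.7 CPM in WT-C3. Its range of 13.6 to 39.1 CPM overlapped those of C3 (24.3 to 97.0 CPM) and WT-C3 (12.0 to 20.4 CPM).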
